A study of Mus musculus with 4 samples.

Results

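The SLC25 family is a set of carrier proteins, mostly of the inner mitochondrial membrane. There each carrier moves a small group of solutes between the cytosol and the mitochondrial matrix. Examples are ADP and ATP, phosphate, citrate, malate, amino acids, acylcarnitines and coenzyme A. In skeletal muscle these carriers feed fuel to the matrix, bring ADP in and send ATP out, and carry reducing equivalents through the malate-aspartate shuttle. The genes described were those whose platform annotation symbol is Slc25a followed by a digit, read from probe sets that match a single gene, with 1 member of the family left out by that rule. This gave 43 genes on 92 probe sets, among 18192 genes with such a probe set. Where a gene had several probe sets, the one brightest on average over the arrays was taken.

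The muscle was the gastrocnemius of male mice, from a cross of C57BL/6N and FVBN. Knockout mice were FoxO1,3,4 -/-, with floxed FoxO1, FoxO3 and FoxO4 deleted by Cre under the MLC1f promoter, which by the study's account is active in type II and not in type I fibres. Control mice were FoxO1,3,4 f/f, called wild type in the sample labels, and carried the floxed alleles without their deletion. Mice of each genotype were starved for 24 h with water or fed ad libitum, and the study's methods give an age of 2 to 4 months for all its experiments. RNA from 6 muscles of 3 mice was pooled for each of the 4 conditions and hybridized to 1 Affymetrix array, so that starved knockout, fed knockout, starved control and fed control muscle have 1 value each. With 1 array per condition there is no replicate, so ratios are described without a test, and a change was called at the 1.5-fold ratio that the study's methods use.

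Values are MAS 5.0 signals, a brightness on a linear scale that is read within a gene and not between genes. The median signal of all probe sets was 22.9 in starved and 23.8 in fed knockout muscle, against 26.0 in starved and 26.3 in fed control muscle. Foxo4 was at 34.3 in starved and 31.3 in fed knockout muscle, against 291.3 in starved and 296.9 in fed control muscle, and Foxo1 was at 165.5 in starved and 185.2 in fed knockout muscle, against 554.4 in starved and 303.8 in fed control muscle, both in the direction of the genotype labels. Foxo3 was at 460.9 in starved and 297.3 in fed knockout muscle, against 477.8 in starved and 250.1 in fed control muscle. Whether that Foxo3 probe set lies in the deleted part was not analysed here. The 10 skeletal muscle markers were past the filter on dim signals, and none changed 1.5-fold in any of the 4 comparisons. Markers of other tissues moved, and their sums weigh bright probe sets most. The summed signal of 11 hair and epidermis genes was 2026.9 in starved and 1017.6 in fed knockout muscle, against 690.5 in starved and 1168.1 in fed control muscle. Its members ran in different directions, with 6 up and 1 down 1.5-fold on starvation in knockout and 4 up and 6 down in control muscle. Some of them reached the array median only on the arrays where they were high, so their changes are tied to how they were kept. S100a3, for example, was at 117.5 in starved and 1.8 in fed knockout muscle, against 1.3 in starved and 180.9 in fed control muscle. The summed signal of the 5 adipocyte markers with a probe set was 3910.9 in starved and 4223.0 in fed knockout muscle, against 6653.0 in starved and 5322.1 in fed control muscle. Adipoq makes up most of this sum, and on starvation 3 of the 5 were up and 1 down 1.5-fold in knockout and 2 up in control muscle. The sum of 5 macrophage markers was 3903.1 in starved and 3963.5 in fed knockout muscle, against 5146.9 in starved and 5080.9 in fed control muscle. On starvation 3 of 5 fibroblast markers were down 1.5-fold in each genotype. Of all genes past the filter, 7.36% were up and 9.45% down on starvation in knockout muscle. In control muscle 9.21% were up and 14.2% down.

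Of the 43 carrier genes, 37 reached the median signal of at least 1 array and are described by ratios. The other 6 were dim on every array, with mean signals of 15.8 or less. They were Slc25a48, Slc25a18, Slc25a13, Slc25a54, Slc25a31 and Slc25a41, and their ratios were not read. Slc25a2 and Slc25a27 passed through only some of the arrays. The scatter between probe sets of one gene is the only error the arrays hold, and it covers no difference between mice. Its SD for a log2 ratio of starved over fed was 0.15 in knockout and 0.16 in control muscle for probe sets with a mean signal of 500 or more. It was 0.24 in knockout and 0.25 in control muscle between 100 and 500, and 0.70 in knockout and 0.66 in control muscle under 100. The 1.5-fold threshold is 0.58 on the log2 scale, so for the 9 carriers under 100 it lies within this scatter.

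**Figure D1:**
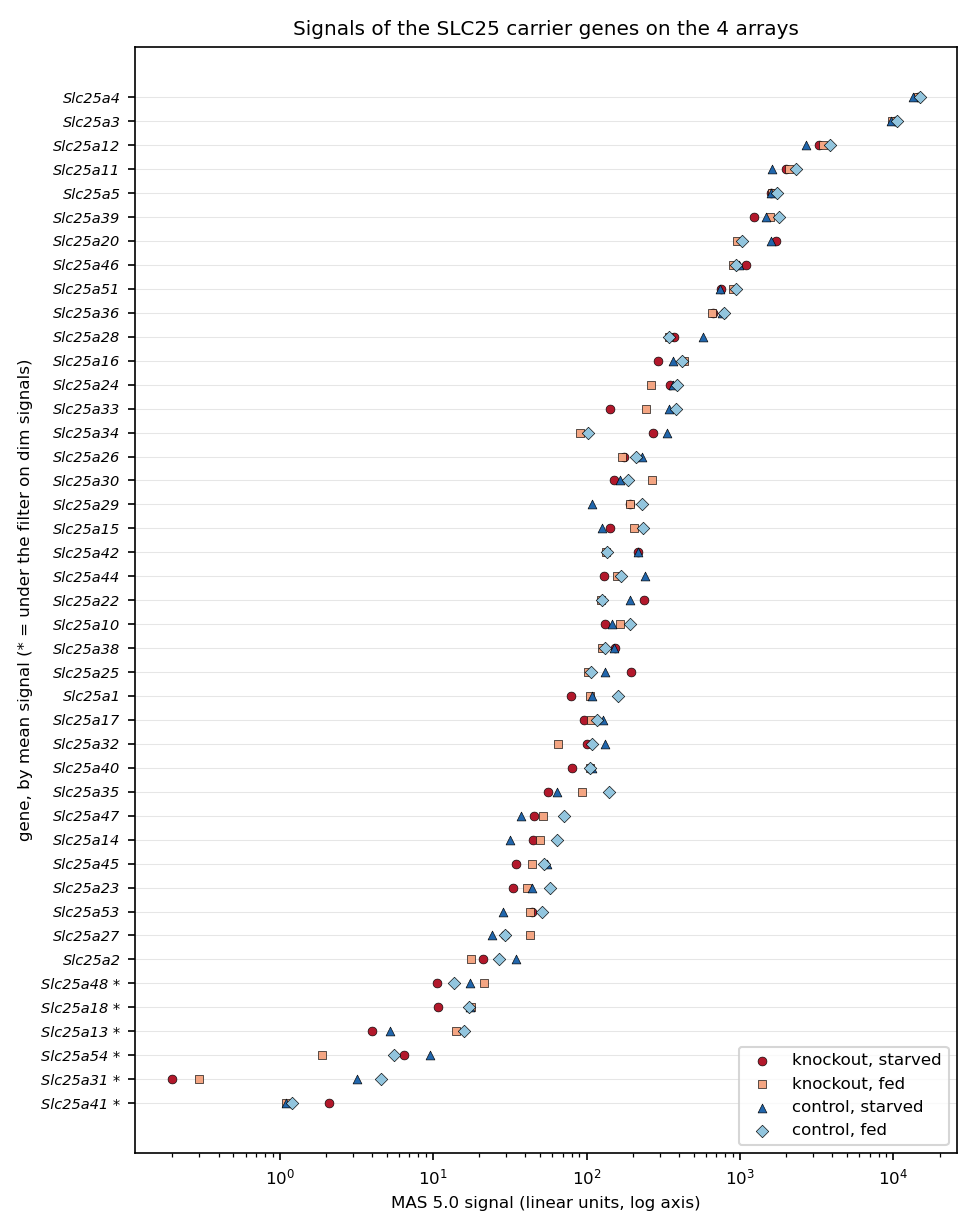
MAS 5.0 signal of each of the 43 SLC25 genes (rows, by mean signal) on the 4 arrays, on a log axis, with circles for starved knockout, squares for fed knockout, triangles for starved control and diamonds for fed control muscle (1 pooled array each). The 4 symbols of Slc25a4 lie close together, between 13489.7 and 14828.3, while those of Slc25a34 fall into a starved pair at 269.4 and 334.5 and a fed pair at 90.9 and 102.0; the order of the rows sets no gene's level against another's.

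Starvation changed a minority of the carriers 1.5-fold, with 6 up and 3 down in knockout muscle and 5 up and 6 down in control muscle. Of all 12564 genes past the same filter, 7.36% were up and 9.45% down in knockout muscle, and 9.21% were up and 14.2% down in control muscle. As a share of the 37 carriers, 16.2% were up in knockout and 13.5% in control muscle, and 8.11% were down in knockout and 16.2% in control muscle. The median log2 ratio of the carriers was -0.06 in knockout and -0.14 in control muscle, beside -0.06 and -0.11 over all genes. The median of the family was close to that of all genes. Slc25a34, Slc25a20, Slc25a42 and Slc25a22 were up in both genotypes, and Slc25a35 was down in both. No carrier passed the threshold in opposite directions in the 2 genotypes, and 22 passed it in neither.

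Slc25a34, a carrier without a transport role given here, had the highest starvation ratios of the 37 carriers in both genotypes. Its signal was 269.4 in starved and 90.9 in fed knockout muscle, against 334.5 in starved and 102.0 in fed control muscle. Both starved arrays stood well above both fed arrays, by 2.96-fold in knockout and 3.28-fold in control muscle. Among the 12564 genes its log2 ratio ranked 212 from the top in knockout and 167 from the top in control muscle. Slc25a20 encodes the carnitine-acylcarnitine translocase, which brings long-chain fatty acids into the matrix for oxidation. It was at 1713.9 in starved and 961.9 in fed knockout muscle, against 1589.6 in starved and 1026.0 in fed control muscle, a ratio of 1.78 in knockout and 1.55 in control muscle. Its other probe set ran the same way, at 1100.9 in starved and 558.7 in fed knockout muscle, against 828.3 in starved and 583.3 in fed control muscle, although there the ratio in control muscle was 1.42.

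Slc25a42 transports coenzyme A into the matrix in exchange for adenine nucleotides. It had nearly the same values in both genotypes, at 217.8 in starved and 133.7 in fed knockout muscle, against 215.7 in starved and 135.4 in fed control muscle. The ratio was 1.63 in knockout and 1.59 in control muscle. Slc25a22, a glutamate carrier, was at 235.8 in starved and 123.7 in fed knockout muscle, against 191.9 in starved and 126.1 in fed control muscle. Its ratio was 1.91 in knockout and 1.52 in control muscle, and the control value is close to the threshold. For Slc25a42, Slc25a22 and Slc25a34 a single probe set was past the filter. Some fat cell markers were also higher in starved muscle of both genotypes. Of 4 brown adipocyte markers, 3 were up 1.5-fold in each, where 7.36% of all genes were up in knockout and 9.21% in control muscle. The 3 include Ucp1, which passed the filter in starved control muscle alone, where it was highest. Its rise is therefore tied to how it was kept. Among the 3 was also Cidea, a lipid droplet protein. The Cidea signal was 101.9 in starved and 46.3 in fed knockout muscle, against 105.2 in starved and 20.6 in fed control muscle. Of the adipocyte list, Cidec was at 481.8 in starved and 238.7 in fed knockout muscle, against 747.9 in starved and 353.7 in fed control muscle, and Pck1 was up in both as well. Other genes of that list ran the other way. Adipoq and Retn were lower in starved than in fed knockout muscle, with log2 ratios of -0.43 and -0.74. Retn and Lep were lower in starved than in fed control muscle, at -0.54 and -0.25. Lep was up in knockout muscle, and Adipoq was slightly higher in starved control muscle. The part of the fat cell markers in the signals of the 4 carriers was not tested.

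The 250 bases before the start of these 4 genes are shown because they are the carriers that rose in both genotypes. Slc25a28 and Slc25a25 were picked from the carriers that passed the threshold on starvation in 1 genotype, and the others of that kind are not shown. Sequences are from RefSeq, build GRCm38.p6, written 5′ to 3′ on the strand of the gene. They lie at chr4:141623835-141624084 (minus strand), chr9:108661886-108662135 (plus strand), chr8:70212282-70212531 (minus strand), chr7:141437875-141438124 (minus strand), chr19:43674882-43675131 (minus strand) and chr2:32424067-32424316 (minus strand). Capitals mark a match to a searched motif on either strand. For Slc25a22 the most upstream of 3 listed starts was taken, and for Slc25a25 the one of 3 that holds a match.
Slc25a34: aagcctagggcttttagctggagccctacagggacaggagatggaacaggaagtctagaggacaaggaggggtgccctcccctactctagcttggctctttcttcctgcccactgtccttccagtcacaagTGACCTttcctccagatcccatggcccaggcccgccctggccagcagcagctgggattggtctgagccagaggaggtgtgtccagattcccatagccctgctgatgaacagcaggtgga
Slc25a20: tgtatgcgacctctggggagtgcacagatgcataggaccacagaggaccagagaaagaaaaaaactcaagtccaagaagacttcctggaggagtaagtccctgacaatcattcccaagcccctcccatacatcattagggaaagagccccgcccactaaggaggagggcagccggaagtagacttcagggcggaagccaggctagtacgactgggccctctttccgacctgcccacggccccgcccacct
Slc25a42: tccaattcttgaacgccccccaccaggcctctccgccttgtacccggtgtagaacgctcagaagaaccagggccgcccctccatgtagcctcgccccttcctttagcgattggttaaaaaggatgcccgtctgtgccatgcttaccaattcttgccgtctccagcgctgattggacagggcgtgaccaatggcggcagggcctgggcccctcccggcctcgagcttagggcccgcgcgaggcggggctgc
Slc25a22: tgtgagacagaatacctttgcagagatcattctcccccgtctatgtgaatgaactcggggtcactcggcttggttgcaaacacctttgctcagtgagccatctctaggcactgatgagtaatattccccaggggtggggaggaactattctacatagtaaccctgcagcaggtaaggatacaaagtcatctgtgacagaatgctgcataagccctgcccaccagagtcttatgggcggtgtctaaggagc
Slc25a28: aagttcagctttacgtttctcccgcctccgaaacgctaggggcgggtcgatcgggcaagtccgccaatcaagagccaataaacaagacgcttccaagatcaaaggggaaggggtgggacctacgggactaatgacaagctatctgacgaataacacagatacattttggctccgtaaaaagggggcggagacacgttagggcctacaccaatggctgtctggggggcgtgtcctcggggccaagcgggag
Slc25a25: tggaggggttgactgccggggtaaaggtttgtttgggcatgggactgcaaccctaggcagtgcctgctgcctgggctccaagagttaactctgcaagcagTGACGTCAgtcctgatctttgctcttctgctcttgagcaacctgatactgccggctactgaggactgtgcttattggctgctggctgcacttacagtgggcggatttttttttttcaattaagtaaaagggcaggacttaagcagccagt
Slc25a34 holds the letters TGACCT, the nuclear receptor half-site AGGTCA on the other strand, beginning 119 bases before its start. Slc25a25 holds the cyclic AMP response element TGACGTCA, beginning 150 bases before the start shown. For the forkhead motif only the exact letters GTAAACA were searched, and no variant of them. These letters were found in none of the 43 windows of the 34 carriers in the promoter table, and in 3.17% of all 32851 windows. The half-site AGGTCA was found for 4 carriers, in 4 of their 43 windows, and in 14.0% of all windows, and TGACGTCA for 2 carriers and in 1.55% of all windows. These are matches of letters and not binding sites, and a window without a match says nothing about a factor.

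Slc25a28, Slc25a25 and Slc25a32 passed 1.5-fold upward in 1 genotype. Slc25a28 encodes mitoferrin 2, which imports iron. It was at 372.6 in starved and 344.2 in fed knockout muscle, against 576.1 in starved and 343.1 in fed control muscle. The starved control array stood apart from the other 3, and the ratio was 1.08 in knockout and 1.68 in control muscle. Of the 5 erythroid markers listed, 3 had a probe set, with a summed signal of 92.6 in starved and 70.6 in fed knockout muscle, against 163.5 in starved and 78.4 in fed control muscle. Alas2, the heme synthesis enzyme of red cell precursors, was highest on that array, at 124.9. Slc4a1 was too, at 36.8, but it passed the filter on that array alone, and the globin gene Hba-a1 was between 1.8 and 3.1 on all arrays and lowest there. Their part in the Slc25a28 signal was not tested. The difference of the log2 responses, knockout minus control, was -0.63 for Slc25a28, where the SD between probe sets for such a difference was 0.31 at this brightness.

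Slc25a25, a calcium-regulated carrier that exchanges ATP-magnesium for phosphate, behaved the other way round. It was at 195.0 in starved and 102.8 in fed knockout muscle, against 131.9 in starved and 107.5 in fed control muscle. The starved knockout array was the highest, with a ratio of 1.90 in knockout and 1.23 in control muscle. A dim probe set of the gene was at 46.9 in starved and 13.2 in fed knockout muscle, against 40.6 in starved and 23.2 in fed control muscle. Slc25a32, the mitochondrial folate carrier, was at 100.7 in starved and 65.3 in fed knockout muscle, against 132.2 in starved and 109.3 in fed control muscle. Its ratio was 1.54 in knockout and 1.21 in control muscle, and both knockout arrays were below both control arrays. On its second probe set the ratio in knockout muscle was 1.16.

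Slc25a29 and Slc25a15, carriers of basic amino acids and of ornithine, fell in control muscle. Slc25a29 was at 191.4 in starved and 193.0 in fed knockout muscle, against 108.0 in starved and 231.1 in fed control muscle. The starved control array was the lowest, and the ratio was 0.992 in knockout and 0.467 in control muscle. All 5 probe sets of Slc25a29 were lower in starved than in fed control muscle, with log2 ratios from -1.35 to -0.69, while in knockout muscle they ran from -0.52 to 0.16. Slc25a15, which exchanges ornithine and citrulline, was at 142.3 in starved and 203.4 in fed knockout muscle, against 125.9 in starved and 234.8 in fed control muscle. Both starved arrays were below both fed arrays, with a log2 ratio of -0.52 in knockout and -0.90 in control muscle. Of the 11 hair and epidermis genes, 6 were also down and 4 were up in starved against fed control muscle. Over all genes, 14.2% were down and 9.21% up there. The 6 that were down lay under the median of the starved control array, so their falls are tied to how they were kept. The part of the hair and epidermis genes in the falls of Slc25a29 and Slc25a15 was not tested.

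Slc25a30 and Slc25a33 fell in knockout muscle. Slc25a30, a relative of the uncoupling proteins, was at 151.6 in starved and 268.9 in fed knockout muscle, against 164.4 in starved and 187.2 in fed control muscle. Its fed knockout signal was the highest of the 4, and the ratio was 0.564 in knockout and 0.878 in control muscle. The other 2 probe sets past the filter showed the same order of the starved and fed arrays, at 95.8 and 186.9 and at 89.0 and 156.0 in starved and fed knockout muscle, against 97.5 and 113.4 and 87.8 and 104.0 in starved and fed control muscle. Slc25a33, a carrier of pyrimidine nucleotides, was at 142.6 in starved and 245.9 in fed knockout muscle, against 344.7 in starved and 384.9 in fed control muscle. Both knockout arrays lay below both control arrays. Its starvation ratio was 0.580 in knockout and 0.896 in control muscle, from 1 probe set.

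Dim carriers made up most of the other falls. Slc25a35 was at 56.2 in starved and 93.3 in fed knockout muscle, against 64.1 in starved and 139.5 in fed control muscle. Both starved arrays were lower than both fed arrays, with a ratio of 0.602 in knockout and 0.460 in control muscle. Slc25a47, Slc25a14 and Slc25a53 passed the threshold downward in control muscle only. Slc25a47 was at 45.5 in starved and 51.8 in fed knockout muscle, against 37.3 in starved and 71.7 in fed control muscle. Slc25a14, another uncoupling protein relative, was at 44.6 in starved and 49.9 in fed knockout muscle, against 31.7 in starved and 64.3 in fed control muscle. Slc25a53 was at 43.9 in starved and 42.6 in fed knockout muscle, against 28.7 in starved and 50.9 in fed control muscle, and its second probe set ran the other way in control muscle, at 30.7 in starved and 16.9 in fed.

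**Figure D2:**
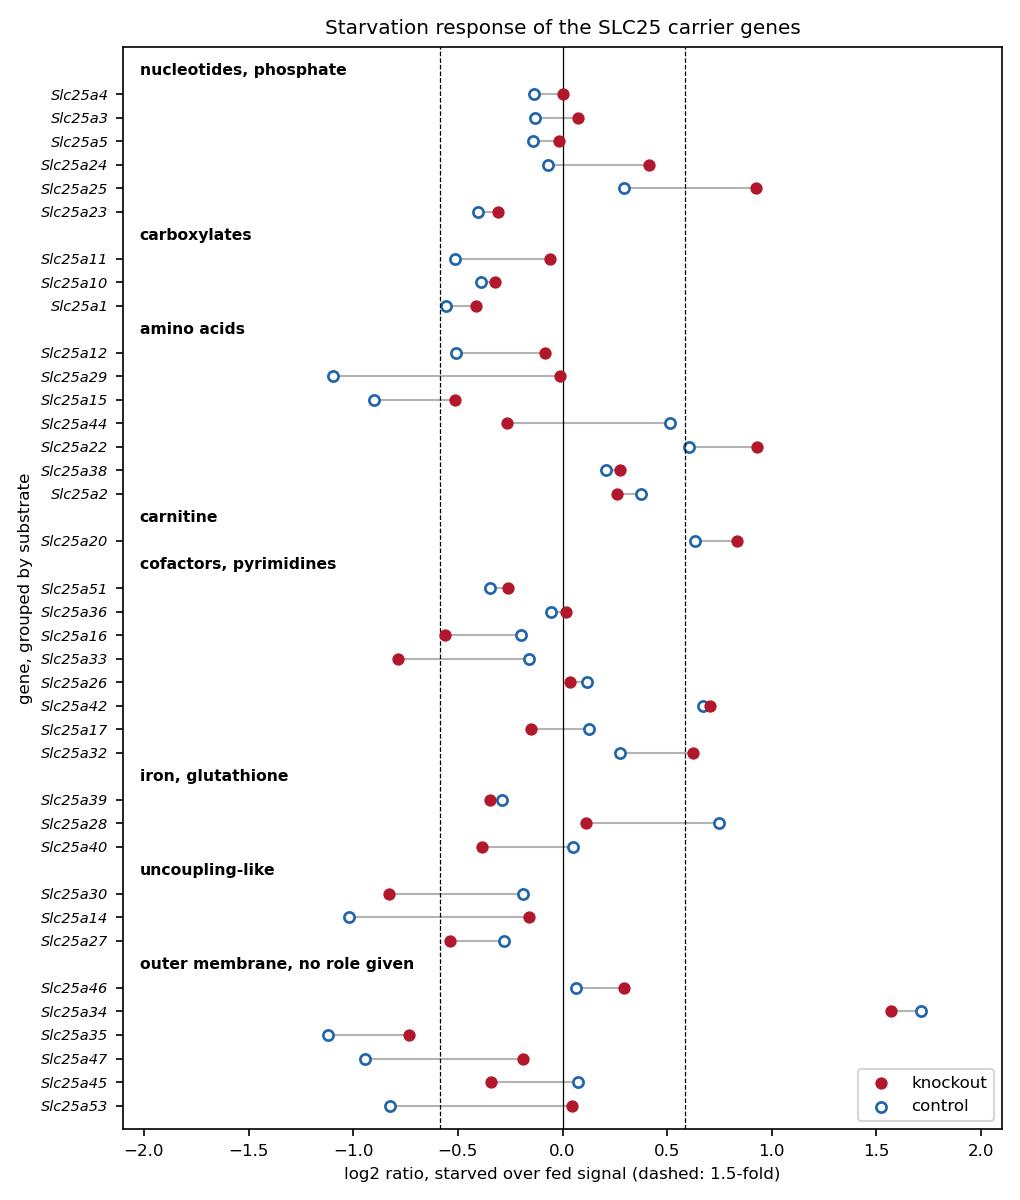
Log2 ratio of starved over fed signal for the 37 SLC25 genes past the filter, grouped by substrate, with filled points for knockout and open points for control gastrocnemius (1 pooled array each); the dashed lines stand at 1.5-fold. Slc25a34 lies farthest right, at 1.57 in knockout and 1.71 in control muscle, and the widest gap is that of Slc25a29, at -0.01 in knockout and -1.10 in control muscle.

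The carriers with the highest signals changed little on starvation, apart from Slc25a20. Slc25a4, the ADP/ATP carrier of muscle and heart, was at 14490.0 in starved and 14469.4 in fed knockout muscle, against 13489.7 in starved and 14828.3 in fed control muscle. Slc25a3, the phosphate carrier, was at 10272.7 in starved and 9755.2 in fed knockout muscle, against 9583.4 in starved and 10505.8 in fed control muscle. Slc25a5, a second ADP/ATP carrier, was at 1602.8 in starved and 1621.0 in fed knockout muscle, against 1584.3 in starved and 1749.4 in fed control muscle. On the probe sets used for these 3 genes the starved control array was the lowest and the fed control array the highest. The spread was under 1.5-fold. Other probe sets of Slc25a4 gave other orders. A further bright one was lowest in starved knockout muscle, at 10396.9, against 10580.6 in starved control muscle. Slc25a4 and Slc25a5 are close in sequence, and the probe set of Slc25a5 is of a type that can bind transcripts of several genes. Slc25a39, a glutathione carrier, was at 1228.4 in starved and 1561.1 in fed knockout muscle, against 1470.6 in starved and 1798.9 in fed control muscle. Slc25a46, an outer membrane protein of mitochondrial dynamics, was at 1102.6 in starved and 900.7 in fed knockout muscle, against 985.5 in starved and 942.4 in fed control muscle.

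Both carriers of the malate-aspartate shuttle had a lower ratio in control than in knockout muscle, under the threshold. Slc25a12, the aspartate-glutamate carrier of muscle, was at 3299.1 in starved and 3499.6 in fed knockout muscle, against 2701.9 in starved and 3845.9 in fed control muscle. Slc25a11, which exchanges malate and 2-oxoglutarate, was at 1995.9 in starved and 2081.5 in fed knockout muscle, against 1617.8 in starved and 2308.6 in fed control muscle. The ratio of Slc25a12 was 0.943 in knockout and 0.702 in control muscle, and that of Slc25a11 was 0.959 in knockout and 0.701 in control muscle. A dimmer probe set of Slc25a12 was at 289.6 in starved and 324.9 in fed knockout muscle, against 164.6 in starved and 344.9 in fed control muscle, a ratio of 0.477 in control muscle. The third, under 100, was higher in starved muscle of both genotypes. Of the 4 enzymes of this shuttle, Mdh1, Mdh2, Got1 and Got2, none passed 1.5-fold on starvation, and their median log2 ratio was -0.08 in knockout and -0.18 in control muscle. Gpd1, the cytosolic enzyme of the glycerophosphate shuttle, was at 1281.0 in starved and 1342.8 in fed knockout muscle, against 759.3 in starved and 1298.2 in fed control muscle, and Gpd2, its mitochondrial partner, at 738.4 and 1160.7 in starved and fed knockout muscle, against 1177.8 and 1556.4 in starved and fed control muscle.

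Among the 10 carriers with a mean signal of 500 or more, the log2 response was higher in knockout than in control muscle for 9, Slc25a39 being the exception. The median of their response difference, knockout minus control, was 0.17, where the SD between probe sets for 1 such difference was 0.20 at this brightness. Over all 37 carriers the median difference was 0.10, with 24 above 0. Over all genes, of any brightness, it was 0.04, with 54.3% above 0. The response difference reached 1.5-fold upward for Slc25a29, Slc25a53, Slc25a14, Slc25a47 and Slc25a25, and downward for Slc25a44, Slc25a30, Slc25a33 and Slc25a28. That is 5 up and 4 down of 37, where 12.3% of all genes were up and 10.4% down. The Slc25a44 difference rests on the probe set used, at -0.78 on the log2 scale. It was -0.12 on another Slc25a44 probe set of similar brightness, and 0.46 on a dim probe set of the gene. Slc25a53, Slc25a14 and Slc25a47 have signals under 100, where the SD between probe sets for such a difference was 0.96, above their own differences of 0.87, 0.86 and 0.76. Of 14 general mitochondrial genes, most of them with signals above 500, among them Cs, Sdha and Cox4i1, none passed 1.5-fold in any comparison, with a median log2 ratio on starvation of -0.04 in knockout and -0.15 in control muscle. The 3 porins and the pyruvate carrier subunit Mpc1 had a median of 0.00 in knockout and -0.21 in control muscle, also with none past 1.5-fold. Each of these 14 genes, the porins and Mpc1 also had a higher log2 response in knockout than in control muscle, so this order was not particular to the carriers.

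Slc25a20 was set beside the other genes of the carnitine route, and Slc25a30 and Slc25a14 beside the uncoupling proteins. Of the 5 carnitine genes listed, 4 were measured, and the sole one past 1.5-fold was Cpt1a, at 244.9 in starved and 192.7 in fed knockout muscle, against 266.9 in starved and 157.6 in fed control muscle. Cpt2, which acts after the translocase, had a ratio of 1.49 in knockout and 1.34 in control muscle. Crat had 1.21 in knockout and 1.14 in control muscle, and the carnitine importer Slc22a5 had 1.29 in knockout and 0.970 in control muscle. Ucp3, the uncoupling protein of skeletal muscle and a carrier of the same family under another name, was at 855.1 in starved and 247.4 in fed knockout muscle, against 710.0 in starved and 282.2 in fed control muscle. Its ratio was 3.46 in knockout and 2.52 in control muscle. Ucp1, the brown fat uncoupling protein, was dim, at 17.6 in starved and 6.5 in fed knockout muscle, against 38.5 in starved and 2.4 in fed control muscle. Mtch1 and Mtch2, carrier-like proteins of the outer membrane, stayed under 1.5-fold in all 4 comparisons.

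**Figure D3:**
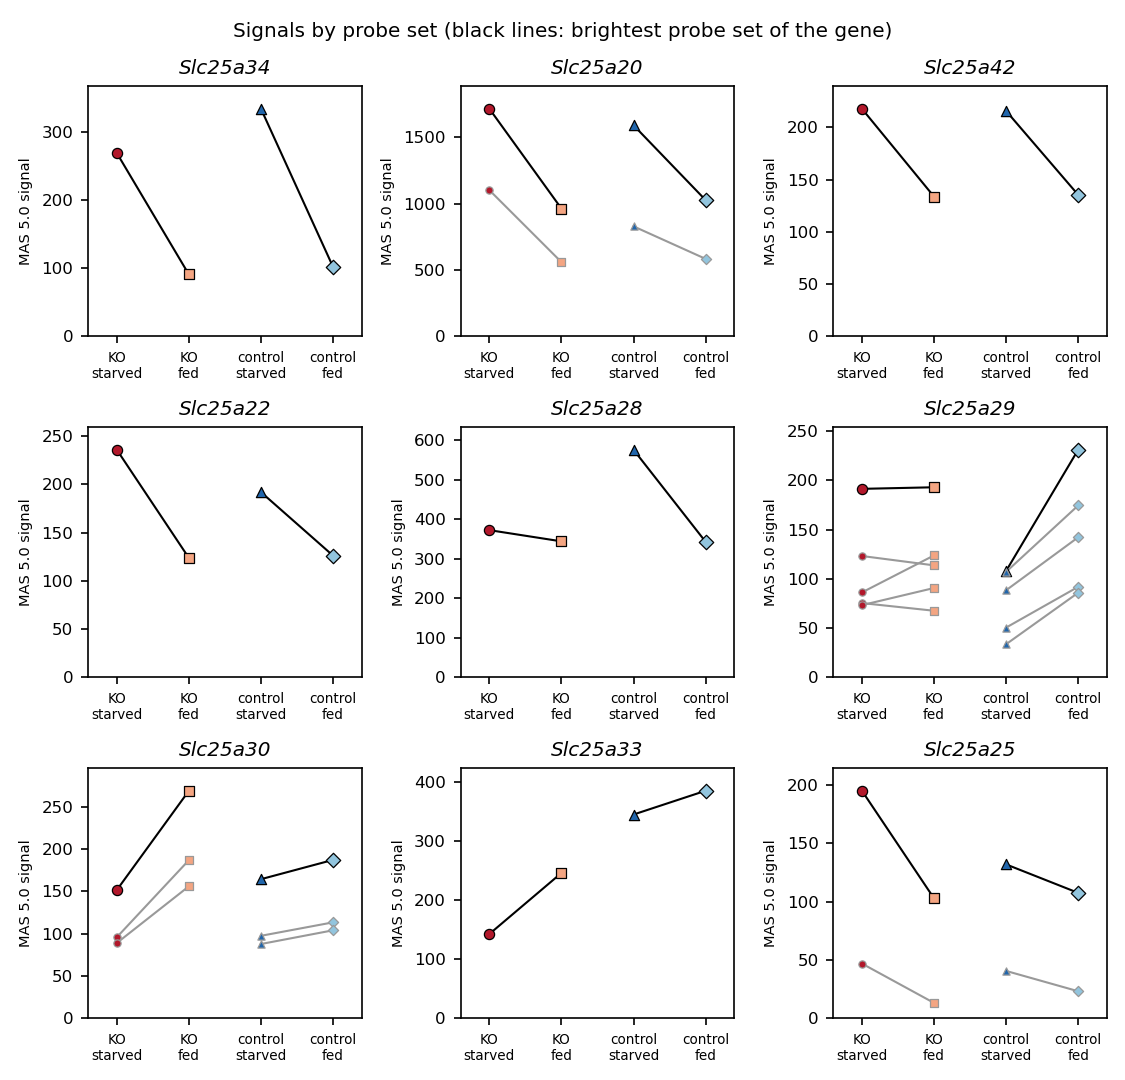
MAS 5.0 signal, on linear axes from 0, of 9 SLC25 genes in starved and fed knockout (KO) muscle and in starved and fed control muscle (1 pooled array each), with a line for each probe set past the filter and the brightest in black. The lines of Slc25a34, Slc25a20, Slc25a42 and Slc25a22 fall from starved to fed on both sides, all 5 lines of Slc25a29 rise from starved to fed on the control side, and Slc25a28 stands out at 576.1 in starved control muscle.

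Set against control muscle, few carriers differed 1.5-fold in knockout muscle. In starved muscle 2 were up and 5 down, where 6.38% of all genes were up and 14.5% down. In fed muscle none was up and 4 were down, where 3.37% of all genes were up and 11.3% down. The median log2 ratio of knockout over control was -0.08 in starved and -0.15 in fed muscle for the carriers, and -0.16 in starved and -0.20 in fed muscle over all genes. Once each array was set to one common median, the median over all genes was 0.02 in starved and -0.05 in fed muscle. The split of the carriers was then 4 up and 2 down in starved and 2 up and 1 down in fed muscle, and after quantile normalization 4 up and 2 down in starved and 2 up and none down in fed muscle. The share of all genes called on these scales was not counted here. On both of these scales Slc25a33 and Slc25a44 remained down and Slc25a29 and Slc25a53 up in starved muscle. The starved calls of Slc25a28, Slc25a45 and Slc25a2 and the fed calls of Slc25a33, Slc25a1 and Slc25a2 were lost on both scales, and the fed call of Slc25a32 after quantile normalization. Of the 37 carriers, 33 were lower in fed knockout than in fed control muscle, and 19 were lower in starved knockout than in starved control muscle. Over all genes, 22.0% were higher in fed knockout than in fed control muscle, and 32.7% were higher in starved knockout than in starved control muscle.

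Slc25a33 had the lowest ratio in starved muscle, at 0.414 of the control signal, and 0.639 in fed muscle. Relative to the median of all genes its log2 ratio was -1.11 in starved and -0.45 in fed muscle. In starved muscle its log2 ratio ranked 314 from the bottom of the 12564 genes. Slc25a28 and Slc25a44 were lower in starved knockout muscle. Slc25a44, a carrier of branched-chain amino acids, was at 130.7 in starved and 157.2 in fed knockout muscle, against 240.5 in starved and 168.4 in fed control muscle. The starved control array was the highest and the starved knockout array the lowest. The ratio of Slc25a44 was 0.544 in starved and 0.934 in fed muscle, and that of Slc25a28 was 0.647 in starved and 1.00 in fed muscle. A second Slc25a44 probe set was at 134.3 in starved and 119.6 in fed knockout muscle, against 177.8 in starved and 146.1 in fed control muscle, a ratio of 0.755 in starved muscle. The adipocyte sum was highest on the starved control array and lower on both knockout arrays. Its part in the Slc25a44 signal was not tested.

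Slc25a29 was higher in starved knockout than in starved control muscle, 1.77-fold, and had a ratio of 0.835 in fed muscle. Its 5 probe sets ran from -0.04 to 1.13 on the log2 scale in starved muscle. The dim Slc25a53 had a ratio of 1.53 in starved and 0.837 in fed muscle. Slc25a25 was just under the threshold in starved muscle, at 1.48, and at 0.956 in fed muscle. Slc25a45, a carrier with a dim signal, was at 34.9 in starved and 44.3 in fed knockout muscle, against 55.3 in starved and 52.6 in fed control muscle. Slc25a2 was at 21.2 in starved and 17.7 in fed knockout muscle, against 34.6 in starved and 26.7 in fed control muscle, and it passed the filter on 2 of the 4 arrays, those with the higher values, so that its lower values in knockout muscle are tied to how it was kept.

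In fed muscle the carriers lower by 1.5-fold in the knockout were Slc25a32, Slc25a33, Slc25a1 and Slc25a2. The ratio of Slc25a32 was 0.597 in fed and 0.762 in starved muscle. Slc25a1, which exports citrate for fatty acid synthesis in the cytosol, was at 79.1 in starved and 105.4 in fed knockout muscle, against 109.1 in starved and 160.6 in fed control muscle. Its ratio was 0.656 in fed and 0.725 in starved muscle, and starved arrays were lower than fed ones in both genotypes. The adipocyte markers mostly ran lower in knockout muscle as well, with 2 of the 5 past the filter down 1.5-fold in fed and 4 in starved muscle. Of all genes, 11.3% were down 1.5-fold in fed and 14.5% in starved muscle. A lower signal in knockout muscle was found for 77.9% of all genes in fed and 67.1% in starved muscle. Adipoq was at 2510.6 in starved and 3388.0 in fed knockout muscle, against 4518.2 in starved and 4011.5 in fed control muscle. In pooled whole muscle, fewer cells of a type and less RNA per cell cannot be told apart. The part of adipocytes in the Slc25a1 signal was not tested. Slc25a30 had the reverse order, with a ratio of 1.44 in fed and 0.922 in starved muscle. After setting the arrays to one common median it was past 1.5-fold upward in fed muscle.

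**Figure D4:**
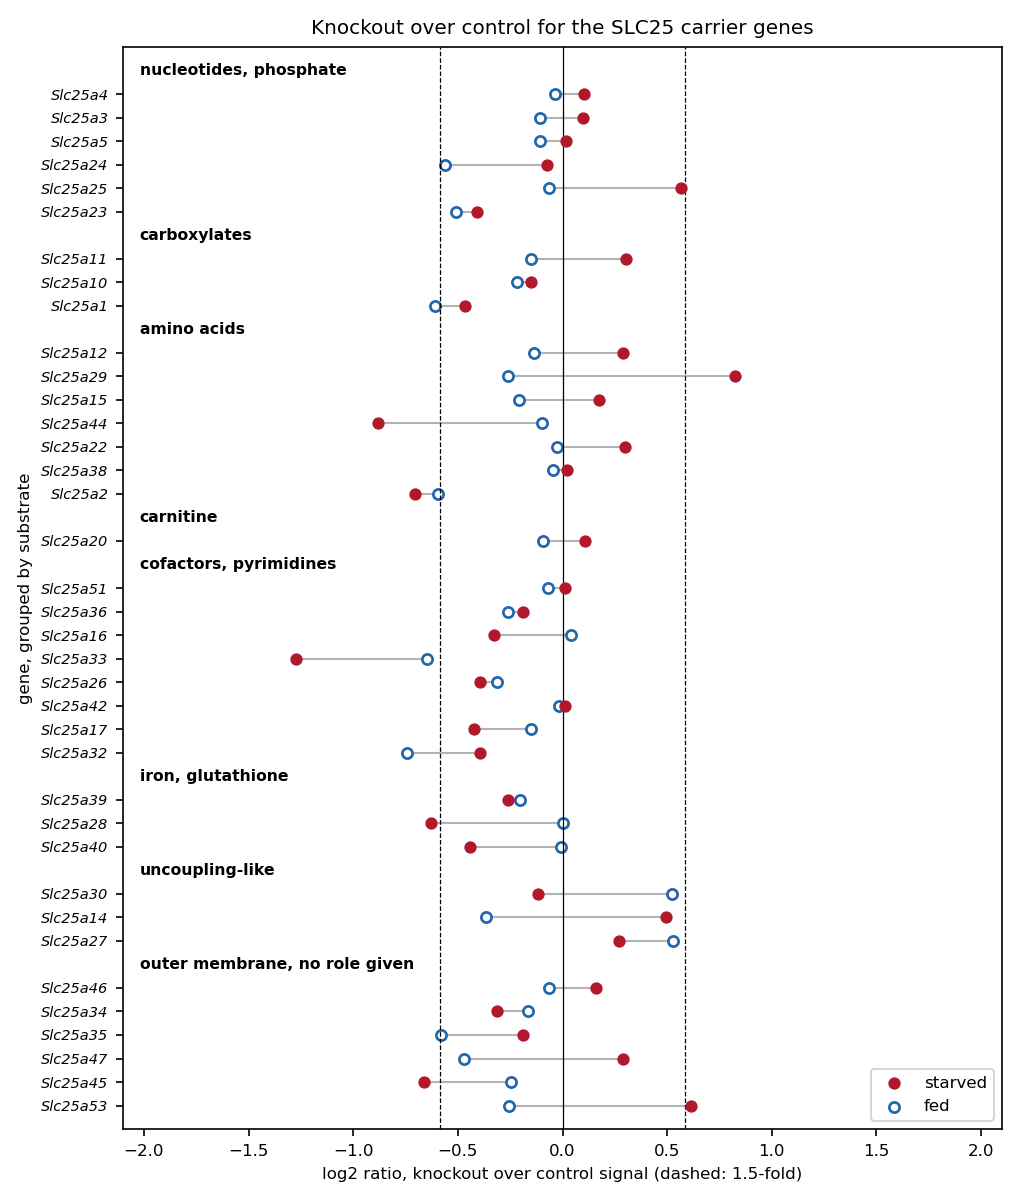
Log2 ratio of knockout over control signal for the 37 SLC25 genes past the filter, grouped by substrate, with filled points for starved and open points for fed gastrocnemius (1 pooled array each); the dashed lines stand at 1.5-fold. Most open points lie left of 0, for 33 of 37 genes, Slc25a33 is farthest left at -1.27 in starved muscle, and Slc25a29 farthest right at 0.83 in starved muscle.

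By substrate, the groups held members that moved in different directions. Over all genes, 7.36% were up and 9.45% down on starvation in knockout muscle and 9.21% up and 14.2% down in controls. A ratio below 0 on the log2 scale was found for 57.8% of genes in knockout and 60.1% in control muscle. Of the 7 amino acid carriers past the filter, 1 was up in knockout muscle on starvation, and 1 was up and 2 down in control muscle. The 8 carriers of cofactors and pyrimidines had 2 up and 1 down in knockout muscle and 1 up in control muscle. The 3 carboxylate carriers were all lower in starved than in fed muscle of both genotypes, with log2 ratios from -0.41 to -0.06 in knockout and from -0.56 to -0.39 in control muscle, none past the threshold. The 3 uncoupling protein relatives were also lower in starved muscle of both genotypes, with 1 called in knockout and 1 in control muscle. For the 18 carriers with no call in any of the 4 comparisons, log2 ratios ran from -0.56, of Slc25a16 on starvation in knockout muscle, to 0.53, of the dim Slc25a27 for knockout over control in fed muscle.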

How the data were processed

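RNA from gastrocnemius muscle, pooled from 6 muscles of 3 mice for each of the 4 conditions, was hybridized by the authors to 1 Affymetrix mouse expression array per condition. The deposited values are MAS 5.0 signals, an array intensity on a linear scale, made by the authors with Affymetrix Expression Console according to the submitters' processing notes. For the scaling target, the value is not given in the sources used here. No further normalization was applied in the main analysis. The number of arrays limits the precision, and 1 array per condition leaves no replicate error.

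Of 45037 probe sets that are not controls, 34945 were listed with 1 gene, 932 with several and 9160 with none in the platform annotation used here. For 34741 probe sets the gene ID was found in the RefSeq table of GRCm38.p6, and the symbol given there was used. The carriers were the exception and kept their platform symbol. The probe set with the highest mean over the 4 arrays stood for a gene, and other probe sets were used as a check. A signal listed at 0 was set to 0.1. A gene was kept if it reached the 50th percentile of at least 1 array. Ratios of starved over fed and of knockout over control signal were called at 1.5-fold, beside the share of all kept genes called. The 2 starvation comparisons share no array with each other, but each array serves in 1 starvation and 1 genotype comparison, so these are not independent. Carriers were named with their signals where they passed the filter and 1.5-fold in at least 1 comparison, or were among the 8 brightest. From other lists some genes were named, and these were not always the ones with the largest ratios. The carriers, the gene lists and the comparisons were chosen with earlier results of these data known. Promoter windows and their positions came from RefSeq, matched by symbol for 34 carriers, and were searched for motifs on both strands. Some genes of the lists, such as Cpt1b and Ucp2, were not analysed here.

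Alternatives were scaling to one common median, quantile normalization, no filter and a 75th percentile filter, an offset of 16 added to each signal, the mean over a gene's probe sets, thresholds of 2-fold and 1.3-fold, and leaving out probe sets that can bind several transcripts. Python 3.11.15, numpy 2.4.6, pandas 2.3.3 and matplotlib 3.10.9 were used.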

Additional observations from a re-analysis of the deposited data

Results flagged for a closer look

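Slc25a29 was singled out because its log2 ratio of knockout over control ran in opposite directions in the 2 feeding states, at 0.83 in starved and -0.26 in fed muscle. The SD between probe sets at this brightness was 0.24 in starved and 0.21 in fed muscle, and the mean over its probe sets was 0.50 in starved muscle. The dim Slc25a53 showed the same order, at 0.61 in starved and -0.26 in fed muscle, with a mean over its probe sets of 0.02 in starved muscle. With 1 array per condition the difference between the feeding states was not tested for either gene.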

How the results depend on the processing

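No paired analysis was possible because each condition has 1 array. Of 31 calls, 19 were kept under all settings run at 1.5-fold in which the gene was measured, and 12 were lost under at least 1; no ratio that was called changed direction. With the arrays scaled to one common median, knockout over control had 4 up and 2 down in starved muscle (median log2 ratio 0.108) and 2 up and 1 down in fed muscle (median -0.0053). After quantile normalization it had 4 up and 2 down in starved muscle (median 0.0965) and 2 up and 0 down in fed muscle (median 0.0093). Over all genes the median of this ratio was -0.16 in starved and -0.20 in fed muscle as deposited, 0.02 in starved and -0.05 in fed muscle with a common median, and 0.02 in starved and -0.00 in fed muscle after quantile normalization. With no filter, 6 carriers were down on starvation in knockout muscle, and for knockout over control 8 were down in starved and 1 was up in fed muscle. With the 75th percentile filter, which leaves fewer genes, 2 were down on starvation in control muscle, and for knockout over control 1 was up and 3 down in starved and 2 down in fed muscle. An offset of 16 gave 1 up and 3 down in starved and 2 down in fed muscle for the same ratio, and the mean over probe sets gave 0 up in starved and 1 up in fed muscle. The offset also lost the calls of Slc25a22 in control and Slc25a32 in knockout muscle on starvation, and both calls of Slc25a53.

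At 2-fold, starvation left 1 up and 0 down in knockout and 1 up and 3 down in control muscle, and knockout over control left 0 up and 1 down in starved and 0 down in fed muscle. At 1.3-fold, starvation gave 8 down in knockout and 11 down in control muscle, and knockout over control gave 4 up and 11 down in starved and 2 up and 8 down in fed muscle. Leaving out probe sets that can bind several transcripts, an alternative chosen after seeing the data, moved none of these counts by over 1.5 times. The share of all genes called was counted at the main setting alone, so the counts under the alternatives have no such share beside them. The causes of these changes were not tested. Carriers under a signal of 100 are limited by the scatter between probe sets.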

Other observations

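The sideroflexins, carriers of the mitochondrial membrane outside the SLC25 family, had signals mostly lower in knockout muscle. All 5 were measured, and in starved muscle none was above 0 in the log2 ratio of knockout over control, where 32.7% of all genes were. The median of the 5 was -0.40, where the median of all genes was -0.16. With the arrays scaled to one common median, that of all genes was 0.02. Sfxn2, Sfxn4 and Sfxn5 were dim, with signals under 100. Sfxn1, a serine transporter, was at 166.2 in starved and 178.2 in fed knockout muscle, against 290.7 in starved and 230.6 in fed control muscle, the sole one past 1.5-fold in starved muscle. Sfxn2 fell on starvation in both genotypes, at 34.5 in starved and 58.7 in fed knockout muscle, against 43.1 in starved and 76.6 in fed control muscle.

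Among 5 measured genes of creatine and adenylate energy transfer, the dim adenylate kinase Ak4 had lower signals in starved muscle of both genotypes. It was at 22.9 in starved and 49.3 in fed knockout muscle, against 22.7 in starved and 54.2 in fed control muscle. In starved muscle it was at its array's median in knockout and under it in control muscle, so the fall is tied to how Ak4 was kept. For signals under 100 the SD between probe sets was 0.70 in knockout and 0.66 in control muscle. Ak1, the cytosolic adenylate kinase of muscle, was at 4940.0 in starved and 5604.1 in fed knockout muscle, against 3652.0 in starved and 6088.8 in fed control muscle, and passed 1.5-fold in control muscle. None of 5 measured genes of mitochondrial folate and S-adenosylmethionine metabolism passed 1.5-fold in any comparison. The 7 slow fibre markers also had none past it.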
